A study of Homo sapiens with 21 samples.

Results

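ESRP1, ESRP2, RBFOX2, MBNL1, MBNL2, MBNL3, QKI, CELF1, RBPMS and RBPMS2 encode RNA-binding proteins that set tissue-specific splicing patterns. The 10 genes were chosen by symbol and role, with earlier measured fold changes of these libraries against their controls in view, and were taken from the 60668 gene identifiers in each deposited count table, and all 10 had enough counts to be tested in both tables. They were followed in 21 RNA-seq libraries of HCC1806, an established human triple-negative breast cancer cell line grown as adherent 2D cultures. The libraries form 7 groups of 3. The first table holds a control labelled 3xCTL, cells labelled 3xSR that overexpress the splicing factor genes SRSF2, SRSF3 and SRSF7 together, and cells labelled MYC-OE that overexpress MYC. The second table holds a single-plasmid control labelled 1xCtrl and cells labelled SRSF2-OE, SRSF3-OE and SRSF7-OE that each overexpress 1 of those factors. All groups share the HCC1806 background. The labels name no promoter, vector or number of clones for any line, 3xCTL may not carry the vector of MYC-OE, and whether replicates are separate cultures is not said, so p-values measure the spread between these libraries, which may be technical.

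Splicing regulators of this kind bind short RNA motifs near alternative exons, and the position of binding decides whether an exon is included or skipped. ESRP1 and ESRP2 drive the epithelial pattern, for example the epithelial isoforms of FGFR2 and CD44, whereas RBFOX2, QKI and the MBNL proteins favour mesenchymal or differentiated isoforms of many exons. CELF1 opposes MBNL proteins on shared exons in muscle and heart, and RBPMS and its paralog RBPMS2 direct the splicing programme of differentiated smooth muscle.

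Over the means of the 7 groups the paralogs RBPMS2 and RBPMS spanned the widest folds of the 10 genes, 10.6 and 5.07 from lowest to highest, and the epithelial regulator ESRP1 the narrowest, 1.12. RBPMS2 was lower than its control in all 5 overexpressing lines, down to 9.39% of the 3xCTL level in MYC-OE. RBPMS was lower in the 3xSR and SRSF3-OE lines and higher in the SRSF2-OE and SRSF7-OE lines. MBNL1 and QKI were 1.22-fold to 1.36-fold higher in 3xSR and SRSF3-OE, while QKI and CELF1 were lower in MYC-OE. MBNL3 varied most between libraries of 1 group and passed the test in no line.

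Library totals ran from 143269192 to 303323552 counts. EPCAM and CDH1, epithelial adhesion genes, stood at group means of 561 to 673 and 324 to 443 CPM (counts scaled to a common library size with TMM), and the basal keratin KRT5 at 1660 to 2390 CPM. The endothelial genes PECAM1 and CDH5 were at or below 0.105 CPM and the fibroblast genes COL3A1 and DCN at or below 0.42 CPM, while the fibroblast collagen COL1A1 was at 7.06 to 9.53 CPM and CD74, a leukocyte gene that epithelial tumour cells can also express, at 40.3 to 84.1 CPM. MYC averaged 174 CPM in MYC-OE against 93.4 in 3xCTL, SRSF3 526 in SRSF3-OE against 375 in 1xCtrl, and SRSF7 435 in SRSF7-OE against 363. In 3xSR, SRSF3 averaged 507 CPM against 409 in 3xCTL and SRSF7 395 against 292. These genes were also raised in lines not labelled for them: MYC averaged 157 CPM in 3xSR, and SRSF3 460 and SRSF7 428 in SRSF2-OE, all past edgeR's threshold. MYC averaged 159 and 161 CPM in SRSF3-OE and SRSF7-OE against 133 in 1xCtrl, and passed in both. The SRSF3-OE call was lost with total counts alone. Of MYC, SRSF2, SRSF3 and SRSF7, 3 passed in SRSF7-OE, 2 higher (MYC and SRSF7) and 1 lower. The lower one was SRSF2, at 340 CPM against 444 in 1xCtrl. SRSF2 was also lower in MYC-OE, at 290 CPM against 403 in 3xCTL (log2 fold change -0.48), and passed. SRSF2 averaged 398 CPM in the libraries labelled SRSF2-OE against 444 in 1xCtrl, and 386 in those labelled 3xSR against 403 in 3xCTL, so SRSF2 was not raised in either and results for these lines go by their labels. Gene-level counts do not tell vector from endogenous transcripts. 1xCtrl replicate 2 stood apart from its group: its counts differed from those of replicates 1 and 3 by a chi-square of 194 and 275 per degree of freedom, against 26.2 between replicates 1 and 3. 3xCTL replicate 2 stood apart to a lesser degree, with 108 and 82.9 against 25.6 between replicates 1 and 3.

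The promoter of RBPMS2 is shown because its group means spanned the widest fold of all members. RefSeq start-site windows (GRCh38.p14) were found for 5 of the 10 genes, 17 windows in all, and the 250 bases before each start were searched on both strands for CACGTG (the E-box that MYC and MAX bind), CACCTG (bound by ZEB and SNAI repressors) and GGGCGG (the GC box that SP factors bind). RBPMS2 has 3 windows. The one shown, the richest in GC, lies at chr15:64775590-64775839 on the minus strand, just upstream of the first exon, and is printed 5′ to 3′ on the strand of the gene with GC boxes of either orientation in capitals.
RBPMS2 promoter: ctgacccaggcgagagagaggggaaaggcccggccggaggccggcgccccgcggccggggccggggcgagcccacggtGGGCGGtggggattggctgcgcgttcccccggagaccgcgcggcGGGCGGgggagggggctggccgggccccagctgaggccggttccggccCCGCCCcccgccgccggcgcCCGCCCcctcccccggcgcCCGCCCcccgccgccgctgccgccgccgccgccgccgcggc
Its GC content was 87.2%, higher than in 99.9% of 35116 windows of the same length, whose median was 58%. It held 5 GC boxes, a motif present in 42.6% of all windows, with 13.9% of windows holding 3 or more. Neither CACGTG, found in 6.34% of all windows, nor CACCTG, found in 17.5%, stood in these letters. The other 2 windows of RBPMS2 had a GC content of 77.2% with 4 GC boxes and of 51.2% with 0. Among the remaining windows of the members, CACGTG occurred once, in 1 of the 3 windows of MBNL1. These are matches of letters, not measured binding sites.

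Per kilobase of exon, a rough scale for comparing different genes, the epithelial regulators were near the top in both controls. The length is that of all annotated exons of a gene, which can exceed the transcripts expressed, and the order depends on it. QKI, at 107 CPM in 3xCTL, was divided by 17368 bases, and RBPMS2, at 18.2 CPM, by 2101. In 3xCTL, ESRP1 stood at 27.1 ± 1.51 CPM per kb (SD, n = 3), CELF1 at 24.5 ± 1.28, ESRP2 at 16.6 ± 1.19 and MBNL1 at 14.6 ± 0.733. RBFOX2 followed at 10.2 ± 0.0565 CPM per kb, RBPMS2 at 8.66 ± 0.578, QKI at 6.18 ± 0.362 and MBNL2 at 3.17 ± 0.224. MBNL3 at 0.386 ± 0.0187 and RBPMS at 0.319 ± 0.0319 CPM per kb were the lowest. Neighbours in this order did not overlap between libraries, except ESRP2 and MBNL1. In 1xCtrl the order was ESRP1, CELF1, MBNL1, ESRP2, RBFOX2, QKI, MBNL2, RBPMS2, MBNL3 and RBPMS, with overlap between ESRP1 and CELF1, between MBNL1 and ESRP2 and between MBNL2 and RBPMS2. The place of RBPMS2 therefore differed between the controls: it averaged 18.2 CPM in 3xCTL and 6.81 in 1xCtrl, a ratio of 2.67. RBPMS had a ratio of 2.34 (2.85 against 1.22 CPM), and the other 8 genes had ratios from 0.783 to 1.16. The controls sit in separate tables with separate scaling, so control line and table cannot be told apart in these ratios.

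**Figure D1:**
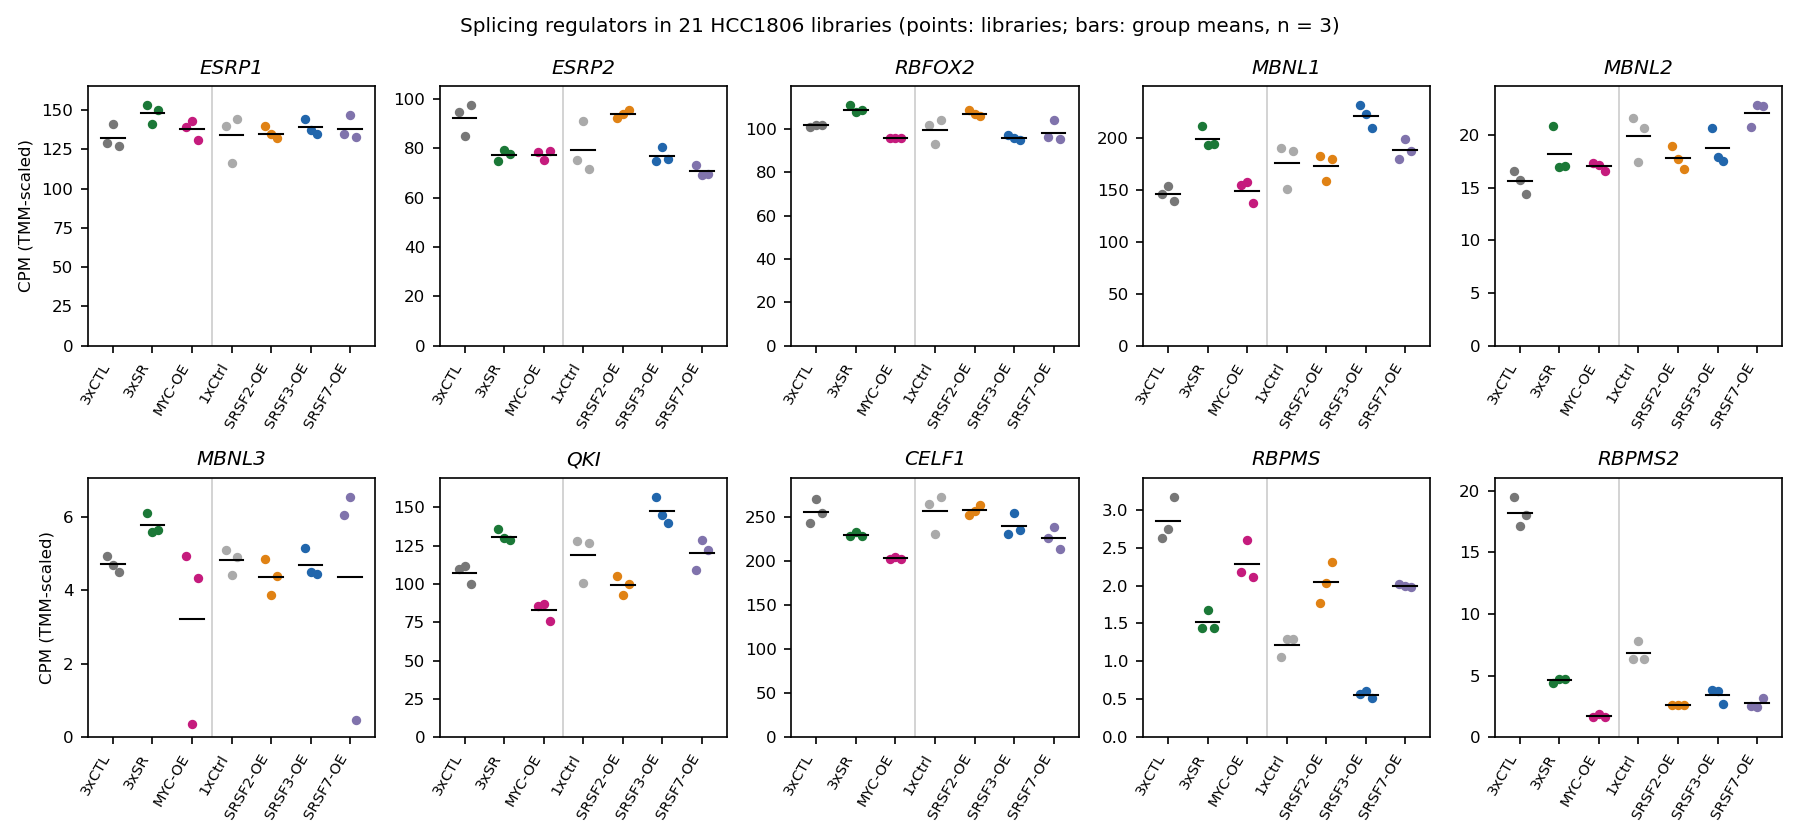
Level of each of the 10 genes (y axis, CPM after TMM scaling, each panel starting at 0) in the 7 groups (x axis; the grey line separates the 2 tables); points are libraries and bars are means of 3. RBPMS2 has means of 18.2 CPM in the 3xCTL panel and 1.71 in the MYC-OE panel, while ESRP1 stays between group means of 132 and 148 CPM.

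The 10 genes were put together with earlier results of these data known, so their changes against the controls are given as descriptions. A gene is said to pass when edgeR's quasi-likelihood test gave a Benjamini-Hochberg adjusted p under 0.05 over all genes tested. In 3xSR 6 of the 10 passed, where 29.0% of all genes tested did: 2 were higher (15.3% of all genes) and 4 lower (13.7%). In MYC-OE 4 passed, against 35.3% of all genes: 0 were higher (18.0%) and 4 lower (17.3%). In SRSF2-OE 3 passed, against 23.5% of all genes: 2 were higher (11.6%) and 1 lower (11.9%). In SRSF3-OE 4 passed, against 29.2%: 2 were higher (15.0%) and 2 lower (14.1%). In SRSF7-OE 2 passed, against 17.3%: 1 was higher (9.03%) and 1 lower (8.26%). DESeq2 called 9 in 3xSR (5 higher, 4 lower), which turns the balance toward higher. Other scalings also moved the split: 3xSR had 3 higher and 4 lower with RLE, MYC-OE had 0 higher and 5 lower with total counts alone, SRSF2-OE had 1 higher and 1 lower with RLE and 1 higher and 2 lower with total counts alone, and SRSF3-OE had 0 higher and 2 lower with upper-quartile scaling and 0 higher and 4 lower with total counts alone. Without 3xCTL replicate 2, 7 passed in 3xSR (3 higher, 4 lower) and 4 in MYC-OE (all lower). Nothing is read from these counts. The 10 genes had a median log2 fold change of 0.13 in 3xSR and -0.28 in MYC-OE. It was -0.01, -0.05 and 0.00 in the SRSF2-OE, SRSF3-OE and SRSF7-OE lines, where the median over all genes tested lay between -0.03 and 0.00. Contrasts that share a control are not independent of each other.

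**Figure D2:**
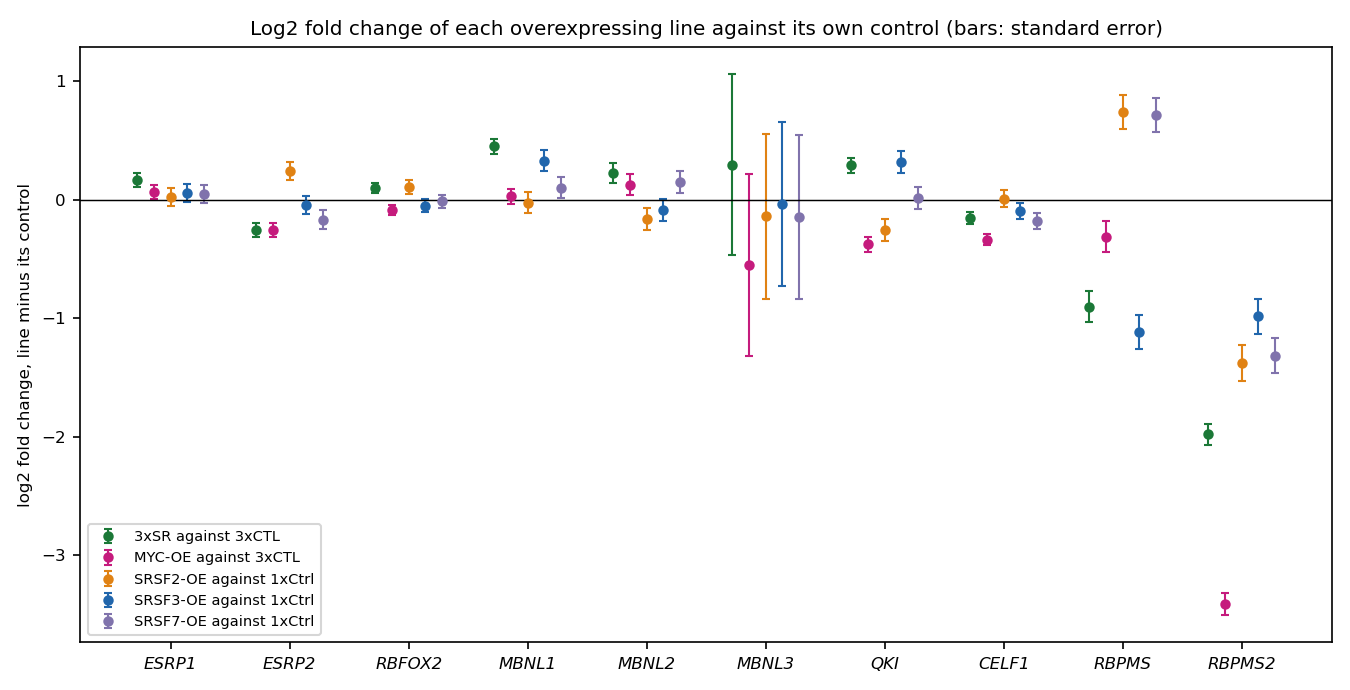
Log2 fold change of each gene (x axis) in each overexpressing line against the control of its own table (y axis), with bars for the standard error. RBPMS2 lies below 0 in all 5 lines, from -0.98 in SRSF3-OE to -3.41 in MYC-OE, and RBPMS lies on both sides of 0; the wide bars of MBNL3 come with 2 libraries of low level.

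ESRP1 (chr8:94641074-94707466, plus strand, GRCh38), the epithelial-specific regulator that is lost when epithelial cells turn mesenchymal, was steady. Over the 21 libraries it ran from 116 CPM in 1xCtrl replicate 2 to 153 in 3xSR replicate 1, with a median of 139. Its log2 fold changes against the controls were 0.16 (SE 0.0577) in 3xSR, 0.06 (SE 0.0576) in MYC-OE and 0.02, 0.05 and 0.05 in the SRSF2-OE, SRSF3-OE and SRSF7-OE lines (SE 0.0763 each). None passed. The 3xSR libraries lay at 153, 141 and 150 CPM against 129, 141 and 127 in 3xCTL, so the lowest of the one group met the highest of the other. In 3xSR the gene was close to the threshold and passed with RLE scaling, with at least 10 counts in every library, with DESeq2, without 3xCTL replicate 2 (0.21) and without 3xSR replicate 2 (0.19).

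ESRP2 (chr16:68229111-68238102, minus strand), which shares most targets with ESRP1, moved more. It measured 94.7, 84.9 and 97.5 CPM in 3xCTL, 74.9, 79.2 and 77.7 in 3xSR and 78.4, 75.2 and 79.0 in MYC-OE. Both overexpressing lines lay below every 3xCTL library, with log2 fold changes of -0.26 (SE 0.0579) and -0.25 (SE 0.0579), and both passed. The 3xSR value shrank to -0.06 and no longer passed when each library's trend over transcript GC content was removed; ESRP2 has the highest GC content of the 10 genes, 59.6% in its longest transcript. In the second table ESRP2 measured 75.4, 91.3 and 71.7 CPM in 1xCtrl and 92.3, 94.1 and 95.4 in SRSF2-OE, while the SRSF3-OE libraries gave 74.7, 80.7 and 75.8 and the SRSF7-OE libraries 73.4, 69.1 and 69.6. The SRSF2-OE libraries lay above all others of that table, with 1xCtrl replicate 2 next below them. Their log2 fold change of 0.24 (SE 0.0788) passed, but 5 of the 10 other settings and 5 of the 6 fits without 1 library ended the call, with values down to 0.13 without 1xCtrl replicate 3 and 0.14 without 1xCtrl replicate 1. In SRSF7-OE ESRP2 passed only with the GC trend removed (-0.27) and without 1xCtrl replicate 3 (-0.27). ESRP2 shares 109 exonic bases with AC020978.5 and MIR6773 on its own strand and 149 with NFATC3 on the other, a small part of its 5563 exonic bases.

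RBFOX2 (chr22:35738736-36028425, minus strand), which binds UGCAUG and promotes many exons of mesenchymal cells, had no log2 fold change outside -0.09 to 0.11 against a control, and none passed. It did pass in 3xSR with DESeq2 (0.10), in MYC-OE with total counts alone (-0.12), and in SRSF3-OE with total counts alone (-0.16) and with the GC trend removed (-0.12). Its 21 values ran from 93.1 to 111 CPM. The libraries of a group lay close together: MYC-OE measured 95.9, 95.8 and 96.0 CPM, below 101, 102 and 102 in 3xCTL and 111, 108 and 109 in 3xSR.

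Muscleblind proteins are known as the factors trapped by expanded CUG repeats in myotonic dystrophy. MBNL1 (chr3:152243828-152465780, plus strand) measured 146, 153 and 139 CPM in 3xCTL, 211, 193 and 194 in 3xSR and 154, 157 and 137 in MYC-OE. All 3xSR libraries lay above all others of that table, and the log2 fold change of 0.45 (SE 0.0637) passed, while MYC-OE overlapped the control at 0.03. In the second table it measured 190, 151 and 187 CPM in 1xCtrl and 182, 158 and 179 in SRSF2-OE, while the SRSF3-OE libraries gave 231, 223 and 209 and the SRSF7-OE libraries 179, 199 and 187. SRSF3-OE stood above all other libraries of its table, with a log2 fold change of 0.33 (SE 0.0881) that passed; it was 0.22 without 1xCtrl replicate 2, the lowest of the controls, and the call was lost when libraries were scaled by upper quartile or by total counts and without SRSF3-OE replicate 1. Values in SRSF2-OE (-0.02) and SRSF7-OE (0.10) did not pass. MBNL1 shares 1555 of its 9989 exonic bases with the antisense genes AC026347.1 and MBNL1-AS1, and since the strand setting of the counting is not given in the sources used here, reads from these bases may be split.

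MBNL2 (chr13:97221434-97394120, plus strand), a paralog prominent in brain, was lower in level, at 14.4 to 22.8 CPM, and passed against neither control. Its log2 fold change was 0.23 (SE 0.0869) in 3xSR, where the libraries measured 20.8, 16.9 and 17.0 CPM against 16.6, 15.7 and 14.4; it passed there with DESeq2. With the GC trend removed MBNL2 passed in MYC-OE (0.22), SRSF3-OE (-0.18) and SRSF7-OE (0.20), and without 1xCtrl replicate 2 in SRSF2-OE (-0.26). In 1xCtrl it measured 21.6, 17.4 and 20.6 CPM, and the 3 single-factor lines overlapped these values. MBNL3 (chrX:132369317-132489968, minus strand), a paralog linked to undifferentiated muscle cells, lay between 3.86 and 6.54 CPM in 19 libraries and far below that in 2. MYC-OE replicate 2 held 75 counts (0.373 CPM) against 4.94 and 4.32 CPM in its group, and SRSF7-OE replicate 3 held 149 counts (0.47 CPM) against 6.04 and 6.54. The fold changes of MBNL3 in these groups, -0.55 (SE 0.767) and -0.15 (SE 0.692), rest on those libraries and were -0.02 and 0.37 without them; none passed. The neighbouring RAP2C-AS1 was at 0.106 to 0.162 CPM in the MYC-OE libraries and 0.0583 to 0.11 in the SRSF7-OE libraries. No drop was seen in the same libraries, but these levels are too low to show whether one occurred. Because all libraries share 1 fit, the large spread of MBNL3 also widens its errors in the lines where it is uniform: in 3xSR (6.11, 5.58 and 5.64 CPM against 4.94, 4.69 and 4.49) the log2 fold change was 0.30 with an SE of 0.764. With a fit of those groups alone it was 0.29 and passed.

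CELF1 (chr11:47465933-47565569, minus strand), which also binds GU-rich elements and promotes mRNA decay, measured 243, 270 and 255 CPM in 3xCTL, 228, 233 and 229 in 3xSR and 202, 205 and 202 in MYC-OE. The 3 groups did not overlap, with MYC-OE lowest, and log2 fold changes of -0.15 (SE 0.0483) and -0.34 (SE 0.0483) passed. The 3xSR call was lost without 3xSR replicate 1 or 3 and when the fit held those groups alone. No single-factor line passed, with 0.01 for SRSF2-OE, -0.10 for SRSF3-OE and -0.18 for SRSF7-OE (SE 0.0711 each). Without 1xCtrl replicate 2, which at 231 CPM was below the 265 and 273 of the other controls, CELF1 passed in SRSF3-OE at -0.18 and in SRSF7-OE at -0.24. It also passed in SRSF3-OE with total counts alone and without SRSF3-OE replicate 2, and in SRSF7-OE with no filter, with the GC trend removed and without SRSF7-OE replicate 2.

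QKI (chr6:163414000-163578596, plus strand), a STAR-family protein that also promotes circular RNA formation in mesenchymal cells, took opposite directions in the first table. It measured 110, 112 and 100 CPM in 3xCTL, 136, 130 and 129 in 3xSR and 85.9, 86.7 and 75.7 in MYC-OE. The 3 groups were fully separate, with log2 fold changes of 0.29 (SE 0.0635) in 3xSR and -0.38 (SE 0.0636) in MYC-OE that both passed; with the GC trend removed the former was 0.18 and still passed. In the second table QKI measured 128, 101 and 127 CPM in 1xCtrl and 105, 93.1 and 100 in SRSF2-OE, while the SRSF3-OE libraries gave 157, 145 and 140 and the SRSF7-OE libraries 109, 129 and 122. SRSF3-OE lay above all other libraries, with 0.32 (SE 0.0937), and passed; SRSF2-OE overlapped the low control replicate 2, with -0.25 (SE 0.0937), and did not. Without that control library SRSF2-OE passed at -0.36 and SRSF3-OE missed the threshold at 0.20. SRSF2-OE also passed when scaled by total counts, under both other filters on low counts, with the GC trend removed (-0.18) and without SRSF2-OE replicate 1 (-0.33). The SRSF3-OE call was also lost with upper-quartile scaling, with total counts alone, with a fit of those groups alone and without SRSF3-OE replicate 1. Without 1xCtrl replicate 2, 5 of the 10 genes passed in SRSF2-OE (2 higher, 3 lower), 4 in SRSF3-OE (1 higher, 3 lower) and 3 in SRSF7-OE (1 higher, 2 lower).

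RBPMS (chr8:30384479-30572261, plus strand), a regulator that is abundant in smooth muscle, was at the bottom of the level order but well above the counting floor, with 112 to 632 counts per library. It measured 2.62, 2.75 and 3.17 CPM in 3xCTL, 1.44, 1.68 and 1.44 in 3xSR and 2.18, 2.60 and 2.11 in MYC-OE. The 3xSR libraries lay below all others of the table, with a log2 fold change of -0.90 (SE 0.132) that passed; MYC-OE, at -0.31 (SE 0.13), did not. In the second table RBPMS measured 1.06, 1.30 and 1.30 CPM in 1xCtrl and 1.77, 2.03 and 2.31 in SRSF2-OE, while the SRSF3-OE libraries gave 0.569, 0.605 and 0.511 and the SRSF7-OE libraries 2.02, 1.99 and 1.98. The control lay between the lines on either side with no overlap: log2 fold changes were 0.74 (SE 0.141) for SRSF2-OE, -1.12 (SE 0.145) for SRSF3-OE and 0.71 (SE 0.14) for SRSF7-OE, and all passed. Under all 16 other settings and fits without 1 library, these 4 calls kept their side of the threshold, with ranges of -0.99 to -0.83 for 3xSR, 0.59 to 0.78 for SRSF2-OE, -1.28 to -1.08 for SRSF3-OE and 0.58 to 0.77 for SRSF7-OE. RBPMS shares 230 of 8931 exonic bases with RBPMS-AS1 on the other strand.

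RBPMS2 (chr15:64739892-64775587, minus strand), known from visceral smooth muscle and heart muscle, measured 19.5, 17.1 and 18.0 CPM in 3xCTL, 4.38, 4.76 and 4.72 in 3xSR and 1.63, 1.85 and 1.65 in MYC-OE. The 3 groups did not overlap, and RBPMS2 was 3.94-fold lower in 3xSR (log2 fold change -1.98, SE 0.0872) and 10.7-fold lower in MYC-OE (-3.41, SE 0.0929). In the second table it measured 6.33, 7.77 and 6.34 CPM in 1xCtrl and 2.61, 2.60 and 2.65 in SRSF2-OE, while the SRSF3-OE libraries gave 3.86, 3.75 and 2.73 and the SRSF7-OE libraries 2.53, 2.46 and 3.22. Every overexpressing library lay below every control, with log2 fold changes of -1.38 (SE 0.152), -0.98 (SE 0.15) and -1.31 (SE 0.151). All 5 passed, and kept passing under each of the 16 other settings and fits without 1 library, between -3.47 and -3.36 in MYC-OE and between -1.13 and -0.88 in SRSF3-OE, the extremes of the 5. The fold is taken from different starting levels in the 2 tables: the overexpressing lines ended at group means of 1.71 to 4.62 CPM.

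The share of each paralog in its family, per kilobase of exon, shows the same values from another side. ESRP1 made up 62.0% to 69.0% of the summed ESRP level and MBNL1 79.5% to 84.1% of the MBNL level in the 7 groups. RBPMS2 made up 96.4% ± 0.456 (SD, n = 3) of the RBPMS family in 3xCTL, 92.8% ± 0.499 in 3xSR and 76.0% ± 0.838 in MYC-OE. The size of these shares depends on the exon lengths used, 2101 bases for RBPMS2 and 8931 for RBPMS, which the SD does not cover. In CPM without length, RBPMS2 was below RBPMS in MYC-OE, at 1.71 against 2.29. Its share was 95.9% ± 0.476 in 1xCtrl and 96.3% ± 0.441 in SRSF3-OE, and lower in SRSF2-OE (84.6% ± 1.64) and SRSF7-OE (85.2% ± 1.89). In SRSF3-OE both paralogs were lower and the share overlapped the control, while in SRSF2-OE and SRSF7-OE RBPMS2 was lower and RBPMS higher. The summed level of the pair was 8.98 ± 0.568 CPM per kb in 3xCTL, 2.37 ± 0.11 in 3xSR and 1.07 ± 0.0871 in MYC-OE, and 3.38 ± 0.402 in 1xCtrl against 1.48 ± 0.0394, 1.70 ± 0.302 and 1.53 ± 0.196 in SRSF2-OE, SRSF3-OE and SRSF7-OE.

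**Figure D3:**
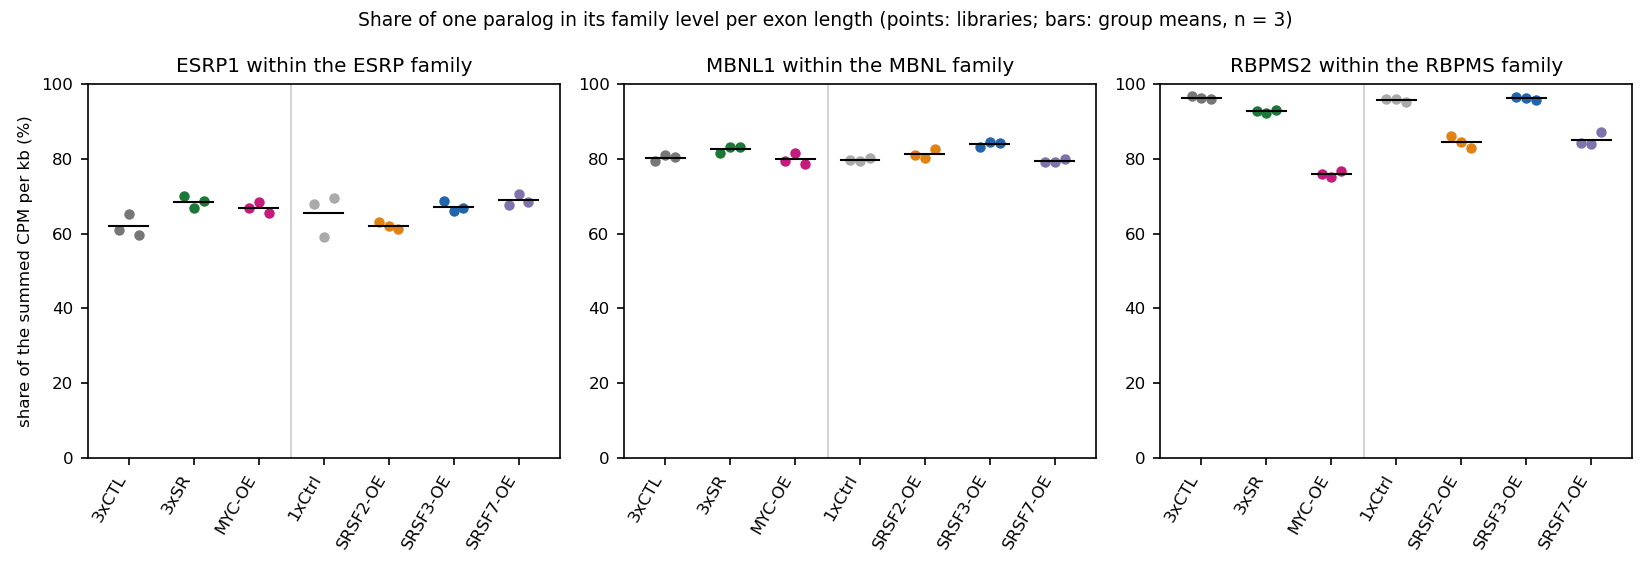
Share of 1 paralog in the summed CPM per kb of its family (y axis, percent, from 0 to 100) in the 7 groups (x axis); points are libraries and bars are means of 3. The RBPMS2 share is 76.0% in MYC-OE and 84.6% and 85.2% in SRSF2-OE and SRSF7-OE, against 92.8% to 96.4% in the other groups.

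Lines of the same table were then compared with each other. Each such value is close to the difference of 2 fold changes against the shared control, which were known when the genes were chosen, so these comparisons too are descriptions and support nothing. MYC-OE and 3xSR differed in 6 of the 10 genes, where 34.9% of all genes tested passed: 1 was higher in MYC-OE (17.3% of all genes) and 5 lower (17.6%). RBPMS2 stood at a log2 difference of -1.43 in MYC-OE (SE 0.0879), QKI at -0.67 (SE 0.0637) and MBNL1 at -0.42 (SE 0.0637), which was -0.25 with the GC trend removed. RBFOX2 at -0.19 and CELF1 at -0.18 were lower by small amounts, and RBPMS was higher, at 0.59 (SE 0.132). In none of these 6 genes did the libraries of the lines overlap. ESRP2 did not differ detectably, at 0.00 with a 95% interval of -0.11 to 0.12, nor did ESRP1, at -0.10 with -0.22 to 0.01.

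SRSF3-OE and SRSF2-OE differed in 4 of the 10 genes, where 26.8% of all genes passed: 2 were higher in SRSF3-OE (14.1% of all genes) and 2 lower (12.6%). With RLE, upper-quartile or total-count scaling 5 passed, 2 higher and 3 lower. RBPMS was lower in SRSF3-OE, at -1.86 (SE 0.146), QKI was higher at 0.57 (SE 0.0939) and MBNL1 higher at 0.35 (SE 0.0882). ESRP2 was lower at -0.29 (SE 0.0789), a call that was lost in each of the 6 fits without 1 library; with the GC trend removed the value was -0.17. For RBPMS2 the libraries did not overlap, at 3.86, 3.75 and 2.73 CPM in SRSF3-OE against 2.61, 2.60 and 2.65, but the difference of 0.39 (SE 0.15) missed the threshold.

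SRSF7-OE and SRSF2-OE differed in 2 of the 10 genes, where 24.2% of all genes passed, 12.8% higher and 11.5% lower. ESRP2 was lower in SRSF7-OE at -0.41 (SE 0.0789) and MBNL2 higher at 0.31 (SE 0.0932). The MBNL2 call was lost without SRSF2-OE replicate 3 or SRSF7-OE replicate 3 and with upper-quartile scaling; total counts alone gave 2 higher and 1 lower. The pair RBPMS and RBPMS2 did not differ detectably between these lines, with 95% intervals of -0.30 to 0.25 and -0.23 to 0.36. SRSF7-OE and SRSF3-OE differed in 2 genes as well, where 35.2% of all genes passed, 17.3% higher and 17.8% lower; with total counts alone 3 passed, all higher. RBPMS was higher in SRSF7-OE, at 1.83 (SE 0.146), and QKI lower at -0.30 (SE 0.0936), a call lost without replicate 1 of either line and with total counts alone; with the GC trend removed the value was -0.19.

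**Figure D4:**
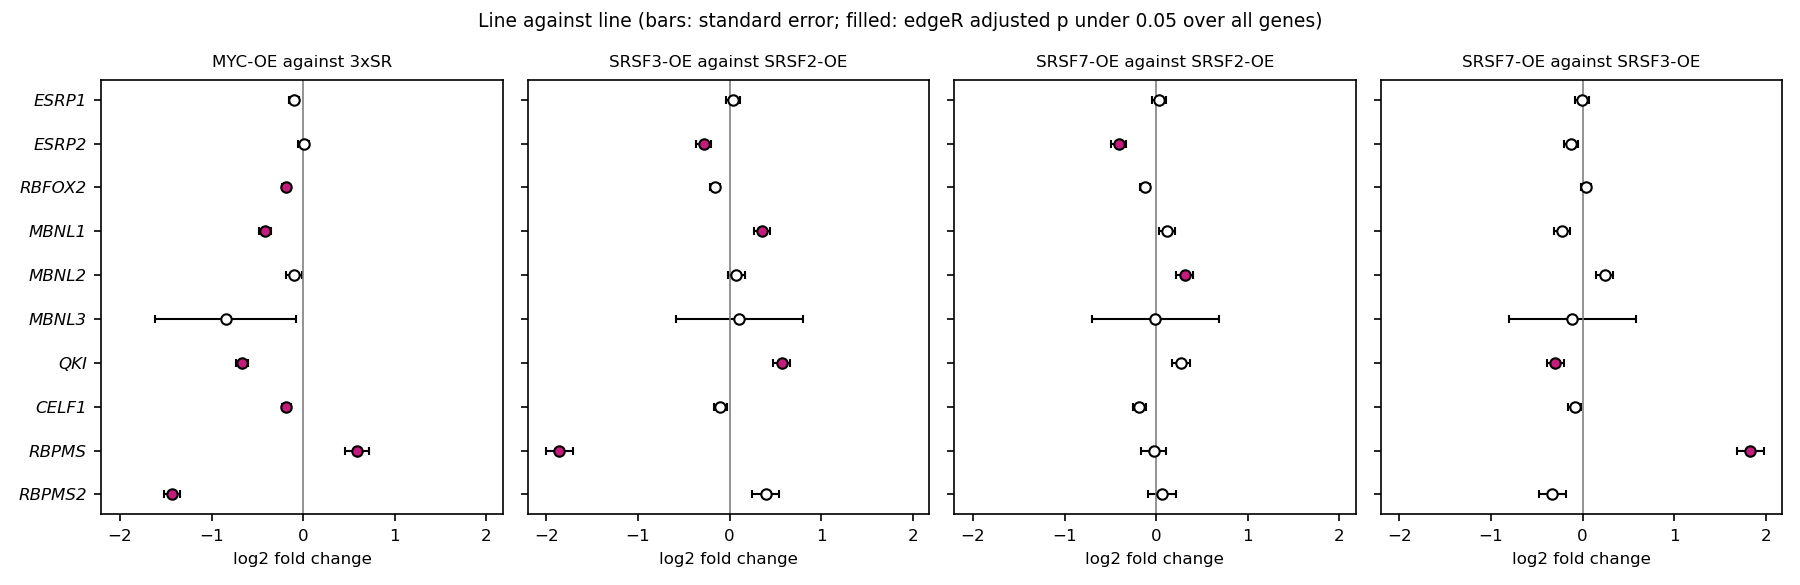
Log2 fold change of each gene (y axis) between lines of the same table (x axis; 4 panels), with bars for the standard error; filled points have an edgeR adjusted p under 0.05 over all genes. RBPMS reaches -1.86 and 1.83 in the panels with SRSF3-OE, and RBPMS2 reaches -1.43 between MYC-OE and 3xSR.

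The effect of 3xSR was compared with each single-factor effect in 1 fit over both tables, each effect against its own control. These differences are made of the same fold changes against the controls that were in view when the genes were chosen, so they are given as descriptions. The 3xSR effect differed from the SRSF2-OE effect in 6 of the 10 genes, where 21.9% of all genes tested did: 3 differences were above 0 (13.3%) and 3 below (8.53%). It differed from the SRSF7-OE effect in 3 genes, against 24.6%: 1 above (13.6%) and 2 below (10.9%). It differed from the SRSF3-OE effect in 1 gene, against 17.8%, below 0 (7.02%, with 10.8% above); with total counts alone 3 passed, 2 above and 1 below. Without 1xCtrl replicate 2, the genes that differed numbered 7, 4 and 6 against the SRSF2-OE, SRSF3-OE and SRSF7-OE effects. RBPMS differed from SRSF2-OE by -1.63 (SE 0.183) and from SRSF7-OE by -1.61 (SE 0.183). From the SRSF3-OE effect it differed by 0.23, with a 95% interval of -0.13 to 0.59. RBPMS2 was lower in 3xSR relative to control than in each single line, with differences of -0.59 against SRSF2-OE, -0.98 against SRSF3-OE and -0.66 against SRSF7-OE. The first of these was lost without 3xCTL replicate 1 or 1xCtrl replicate 1, and the starting level in 3xCTL was 2.67 times that in 1xCtrl. QKI and MBNL1 differed from the SRSF2-OE effect by 0.55 and 0.48, which were 0.35 and 0.32 with the GC trend removed and still passed. From the SRSF3-OE effect their differences were -0.01, with an interval of -0.24 to 0.22, and 0.13, with -0.08 to 0.35. Differences between the MYC-OE effect and the single-factor effects were not tested.

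Other members of the same families were low, with CELF5 in SRSF7-OE the highest group mean at 2.48 CPM. Of RBFOX1, RBFOX3, CELF2, CELF3, CELF4, CELF5 and CELF6, 3 of 7 had enough counts to be tested. For these and the lists that follow, the shares of all genes that passed are those given for each contrast above. All these lists were chosen with earlier results of these data known. The adjusted p-values printed for their genes are therefore descriptions, not independent tests. CELF2, a paralog of CELF1 prominent in brain and blood cells, rose from 0.112 CPM in 3xCTL to 0.329 in 3xSR (edgeR log2 fold change 1.54 with SE 0.352, adjusted p = 0.00625) and 0.838 in MYC-OE (2.89 with SE 0.352, adjusted p = 5.77e-05). CELF5 fell in SRSF3-OE, from 1.50 to 0.853 CPM. CELF2 did not pass in 3xSR, nor CELF5 in SRSF3-OE, under limma-voom. No other of these 7 genes passed in those lines, and in SRSF2-OE and SRSF7-OE edgeR called 0 of the 3; at an unadjusted p under 0.05 there were 0 and 2, DESeq2 and limma-voom each called 0 and 2. The median log2 fold change of the 3 ran from -0.45 in 3xSR to 0.72 in SRSF7-OE.

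Of 20 other tissue-restricted or EMT-linked splicing regulators, 17 could be tested, and their p-values are descriptions as well. In 3xSR 6 passed (4 higher, 2 lower), in MYC-OE 8 (3 higher, 5 lower), in SRSF2-OE 4 (2 and 2), in SRSF3-OE 9 (4 higher, 5 lower) and in SRSF7-OE 1, lower. The median log2 fold change of the 17 was 0.12, -0.03, 0.01, 0.12 and 0.11 in that order. RBM20, which controls titin splicing in heart muscle, fell from 1.48 CPM in 3xCTL to 0.366 in 3xSR (edgeR log2 fold change -2.01 with SE 0.212, adjusted p = 2.69e-05) and 0.401 in MYC-OE (-1.88, adjusted p = 2.72e-05), and from 0.778 in 1xCtrl to 0.254 in SRSF3-OE (-1.61, adjusted p = 0.000537). SRRM3, a regulator of neural microexons, fell in 3xSR and SRSF3-OE, with log2 fold changes of -0.92 (SE 0.127) and -1.38 (SE 0.222, edgeR adjusted p = 0.000531). KHDRBS3, a STAR-family relative of QKI, rose in 3xSR by 1.30 (SE 0.2, edgeR adjusted p = 0.000481). It also passed in MYC-OE at 0.73, in SRSF2-OE at 0.55 and in SRSF3-OE at 0.76. NOVA1, a neuronal regulator, rose from 0.0204 CPM in 3xCTL to 0.267 in 3xSR and 0.36 in MYC-OE, all low levels.

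The abundant regulators of that list moved little. In MYC-OE, PTBP3 fell by 0.39, RBM47 by 0.34, TIA1 by 0.31 and HNRNPM by 0.20 on the log2 scale, and RBM38 rose by 0.55. In SRSF3-OE, TIA1 fell by 0.49, RBM47 by 0.29 and TIAL1 by 0.19, and HNRNPM rose by 0.38. TIAL1 fell in SRSF7-OE by 0.20. In SRSF2-OE, TIA1 fell by 0.33 and PTBP3 by 0.29, and HNRNPM rose by 0.34. PTBP2, the neuronal paralog of PTBP1, rose by 0.22 in 3xSR, a call that was lost with upper-quartile scaling and total counts alone, while PTBP1 (195 to 234 CPM) and HNRNPLL (41.8 to 44.7 CPM) passed in no line.

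Transcription factors that set the epithelial or mesenchymal state were counted because several are known to repress or activate ESRP genes. This list was also chosen with earlier results known, so its p-values are descriptions. Of 8 tested, 6 passed in 3xSR (5 higher, 1 lower; 29.0% of all genes passed), 4 in MYC-OE (3 higher, 1 lower), 3 in SRSF2-OE (all higher), 4 in SRSF3-OE (3 higher, 1 lower) and 0 in SRSF7-OE under edgeR, where DESeq2 and limma-voom also called 0 and 1 gene had an unadjusted p under 0.05. Their median log2 fold change was 0.38, 0.12, 0.26, 0.25 and 0.11 in that order of lines. ZEB1, a repressor of ESRP1, rose by a log2 fold change of 1.50 in 3xSR (edgeR adjusted p = 0.0404), 1.79 in MYC-OE (adjusted p = 0.0142), 1.02 in SRSF2-OE (adjusted p = 0.0334) and 1.55 in SRSF3-OE (adjusted p = 0.00244), but never exceeded a group mean of 0.747 CPM. SNAI2 rose by 0.35 in 3xSR, 0.41 in SRSF2-OE and 0.75 in SRSF3-OE and fell by 0.31 in MYC-OE. OVOL1, which favours the epithelial state, rose by 1.14 in SRSF2-OE (edgeR adjusted p = 4.94e-05), by 0.41 in 3xSR and by 0.64 in SRSF3-OE. SNAI1 rose by 0.83 in 3xSR and by 1.15 in MYC-OE (edgeR adjusted p = 0.000874). TWIST1 rose by 0.51 in 3xSR and by 0.65 in MYC-OE. GRHL2, an epithelial factor at 92.0 to 122 CPM, fell by 0.15 in 3xSR and 0.19 in SRSF3-OE.

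Marker genes moved with some of these lines, and their part in the results was not tested. They too were listed with earlier results known, so values here are descriptions. KRT14, a basal keratin, rose by 0.98 in 3xSR, 0.47 in MYC-OE and 0.94 in SRSF3-OE, and KRT17 by 1.60 in SRSF3-OE (edgeR adjusted p = 0.0011). CDH1 fell by 0.22 in 3xSR and 0.33 in SRSF3-OE, KRT5 fell by 0.31 in SRSF2-OE and 0.37 in SRSF3-OE, and EPCAM rose by 0.26 in MYC-OE. ERBB2 fell by 0.51 in 3xSR, 0.37 in SRSF2-OE and 0.36 in SRSF3-OE, and the latter pair of calls was lost with RLE scaling. ESR1, the estrogen receptor gene at 6.77 to 11.1 CPM, rose by 0.29 in MYC-OE, 0.36 in SRSF2-OE and 0.31 in SRSF7-OE, the last call lost with upper-quartile scaling, and fell by 0.34 in SRSF3-OE. PGR, the progesterone receptor, had 19 to 76 counts per library in 3xCTL and 230 to 264 in 1xCtrl, and 0 in every library of 3xSR, MYC-OE and SRSF2-OE, up to 6 in SRSF3-OE and up to 2 in SRSF7-OE. PDGFRB, a fibroblast gene below 0.87 CPM, had log2 fold changes of -0.91 in 3xSR, -0.79 in MYC-OE, -0.90 in SRSF2-OE and -1.28 in SRSF3-OE, all passing. PTPRC, a leukocyte gene at or below 0.419 CPM, rose by 1.13 in SRSF7-OE. CD74 fell by 0.33 in 3xSR and 0.36 in SRSF2-OE and rose by 0.65 in MYC-OE and 0.34 in SRSF7-OE.

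The genes whose pattern lay nearest to RBPMS2 and RBPMS were found among 14318 genes by the root mean square difference of log2 CPM relative to the own control over 21 libraries. Nearest to RBPMS2 were TACR3, a neurokinin receptor gene (0.28), NLGN1, a synaptic adhesion gene (0.48), and AUTS2 (0.60). TACR3 differed from its control by -1.82, -3.23, -1.53, -0.96 and -1.15 in the 3xSR, MYC-OE, SRSF2-OE, SRSF3-OE and SRSF7-OE lines, where RBPMS2 had -1.97, -3.41, -1.37, -0.99 and -1.32 on the same scale. Nearest to RBPMS were TNS1, a focal adhesion gene (0.27), DAPK1, a death-associated kinase gene (0.30), and ALOX15, a lipoxygenase gene (0.31). TNS1 differed by -1.08, -0.04, 0.48, -0.75 and 0.60 in the same order of lines, where RBPMS had -0.90, -0.31, 0.74, -1.10 and 0.72. The 21 libraries share their 2 sets of controls, and these genes were picked for likeness, so no test is given.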

How the data were processed

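The authors' deposited files are 2 tables of whole-number counts per gene, not scaled, for libraries made from DNase-treated, polyA-selected RNA with a stranded kit and read as 150 base pairs paired-end, per the labels' protocols. Trimmomatic 0.39, STAR, StringTie 2.1.3b and the build GRCh38.p13 are named in the submitters' processing notes, without roles; the counting step, its strand setting, the annotation release whether a read pair counts once, and whether counts were tallied from reads or derived from StringTie's coverage, are not given in the sources used here. Positions, exon overlaps, exon lengths and GC content come from GENCODE release 29 (GRCh38), matched by identifier without version, and may differ from the models counted; CPM per kb uses the exon union of a gene.

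Libraries were grouped by their titles, and all 21 were used. In R 4.3.3, edgeR 4.0.16 kept genes by filterByExpr (minimum count 10, minimum total 15), scaled by TMM and tested contrasts by a robust quasi-likelihood fit in each table over all its groups (23160 and 24362 genes). Differences of effects used a fit over both tables (25013 genes). P-values are two-sided and Benjamini-Hochberg adjusted over all genes tested, at 0.05. The SE is the absolute log2 fold change over the square root of F, and 95% intervals take it as normal. On simulated counts with 200 genes changed 2-fold among 23160, the 3xSR against 3xCTL fit recovered 98.9% of the 95 changed genes at or above 5 CPM and 58% of all, with 7.2% of calls false. The SRSF2-OE against 1xCtrl fit recovered 94.9% of 98 such genes and 53.5% of all, with 4.46% of calls false. Smaller fold changes were not simulated, and far more genes passed in the real contrasts, so recovery of smaller changes is not known.

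The 10 genes and the other lists were chosen with earlier results of these data known. The rule for names took the 10 genes, every other list gene that passed with an absolute log2 fold change of at least 1 against a control or stood at 10 CPM in a control, the overexpressed genes, and the 3 nearest genes by pattern for the 2 members of widest range, among genes averaging at least 1 CPM in each table. Further list genes are named to fill out a count and were chosen after their values were seen. Alternatives were RLE, upper-quartile and total-count scaling, other filters, DESeq2 1.42.0, limma-voom (limma 3.58.1), the replicate number as a block, removal of each library's trend over GC content (50 bins), a fit of the compared groups alone, and leaving out each replicate.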

Additional observations from a re-analysis of the deposited data

Results flagged for a closer look

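The following differences between the effect of 3xSR and a single-factor effect, each against its own control, had an edgeR adjusted p under 0.05 for the difference itself. They are made of the fold changes against the controls that were known when the genes were chosen, so they are descriptions and no p is printed. Against the SRSF2-OE effect these were ESRP2 (-0.49), MBNL1 (0.48), MBNL2 (0.40), QKI (0.55), RBPMS (-1.63) and RBPMS2 (-0.59). Against the SRSF3-OE effect it was RBPMS2 (-0.98). Against the SRSF7-OE effect these were MBNL1 (0.35), RBPMS (-1.61) and RBPMS2 (-0.66). MBNL2 in the first comparison and MBNL1 in the last were 0.11 and 0.18 with the GC trend removed and no longer passed, and each was also lost in several fits without 1 library. Against the SRSF2-OE effect, ESRP2, MBNL1 and QKI shrank to -0.32, 0.32 and 0.35 with the GC trend removed and still passed.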

How the results depend on the processing

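Depth was not a limit for the abundant members. RBPMS, with 112 counts in its smallest libraries, MBNL3 with its 2 low libraries, and the list genes below 1 CPM are among the least precise. So is RBPMS2 in the second table, with SE of 0.15 to 0.152 against 1xCtrl, where RBPMS had 0.14 to 0.145. Of the values of single genes under other settings, 687 kept their direction and side of the threshold, 19 fell below it, 21 rose above it and 13 reversed; among fits without 1 library these were 438, 36, 10 and 20. No reversed value had passed in either fit, and the largest was MBNL3 in SRSF7-OE, 0.37 without replicate 3 in place of -0.15. The cause was not tested. With upper-quartile scaling, 2 genes passed in SRSF3-OE and 1 in SRSF7-OE against SRSF2-OE. With the GC trend removed, 5 passed in SRSF7-OE, 4 in SRSF7-OE against SRSF2-OE, 6 in SRSF7-OE against SRSF3-OE and 2 in the effect of 3xSR minus that of SRSF3-OE; for this difference, 3 passed with total counts alone and 2 with at least 10 counts in every library. SRSF7-OE against SRSF2-OE gave 4 with that filter and 4 with the compared groups alone, which gave 4 in SRSF7-OE against SRSF3-OE.

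Leaving out each replicate in turn gave 5 to 7 genes in 3xSR, 4 in MYC-OE each time, 6 in MYC-OE against 3xSR each time, 2 to 5 in SRSF2-OE, 2 to 5 in SRSF3-OE and 2 to 3 in SRSF7-OE. It gave 4 to 5 in SRSF3-OE against SRSF2-OE, 1 to 3 in SRSF7-OE against SRSF2-OE and 2 to 3 in SRSF7-OE against SRSF3-OE, and 4 to 7, 1 to 4 and 2 to 6 in the effect of 3xSR minus that of SRSF2-OE, SRSF3-OE and SRSF7-OE.

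Reversed values were as follows. MBNL1 in MYC-OE was -0.0042 with total counts alone. ESRP1 in SRSF2-OE was -0.012 with no filter, -0.016 with the compared groups alone and -0.037 with total counts alone. CELF1 in SRSF2-OE was -0.027 with no filter, -0.052 when scaled by total counts, -0.0016 with at least 10 counts in every library, -0.028 with the GC trend removed and -0.031 with the compared groups alone. ESRP1 in SRSF3-OE was -0.055 with total counts alone and -0.011 with upper-quartile scaling, ESRP2 in SRSF3-OE 0.078 with the GC trend removed and QKI in SRSF7-OE -0.023 with upper-quartile scaling. Fits without 1 library ranged from -0.0070 to 0.088 for MBNL1 in MYC-OE, from -0.069 to 0.014 for CELF1, from -0.076 to 0.039 for ESRP1 and from -0.13 to 0.0018 for MBNL1 in SRSF2-OE, from -0.048 to 0.069 for ESRP1 and from -0.17 to 0.055 for ESRP2 in SRSF3-OE, and from -0.028 to 0.082 for ESRP1, from -0.074 to 0.061 for QKI and from -0.58 to 0.37 for MBNL3 in SRSF7-OE.

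Deviations from the group means correlated between same-numbered libraries at -0.19 (SRSF7-OE against 1xCtrl) to 0.0543 (SRSF7-OE against SRSF2-OE). With so few libraries per group, these values cannot tell whether same-numbered libraries shared a culture or preparation. Blocking on the replicate number, 7 genes passed in 3xSR instead of 6, MBNL2 joining at 0.2233, and the replicate block changed no other call. This too is a description, since these fold changes were known when the genes were chosen.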
